A study of Mus musculus with 21 samples.

Results

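The transcriptome of cultured mouse natural killer (NK) cells in which both Ikzf1 and Ikzf3 had been targeted was compared with that of Cre only cells. NK cells are cytotoxic lymphocytes of innate immunity. Ikzf1 encodes Ikaros and Ikzf3 encodes Aiolos, related zinc finger transcription factors that bind short GGGAA-containing sites, form dimers with each other, recruit chromatin-remodelling corepressors and are best known for their parts in lymphocyte development. Mature NK cells kill with perforin and granzymes stored in granules, read target cells through paired activating and inhibitory receptors, and depend on interleukin 15 (IL-15) for survival.

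The 3 double knockout libraries (DKO, columns S5 to S7) came from mice with an NK cell conditional deletion of Ikzf1 and Ikzf3, and the 4 control libraries (Cre only, S16 to S19) from mice that carried the Cre recombinase alone, so that Cre is shared by all groups. Splenic NK cells of both groups were sorted and maintained with IL-15 at 50 ng/ml before RNA extraction. Cultured Ikzf1 KO (S12 to S15, 4 libraries) and Ikzf3 KO cells (S1 to S4, 4 libraries), each lacking 1 of the genes in NK cells, served for comparison. The Cre driver, the deleted exons, the age of the mice and the length of the culture are not given in the sources used here. The labels call the samples biological replicates. Of 11736 genes in the deposited table, 9638 had an RPKM (reads scaled to gene length and to library size) of at least 1 in at least 3 of these 7 libraries and were tested. A gene near 0 in Cre only cells could thus enter the test through the 3 DKO libraries alone, and one near 0 in DKO cells through the Cre only libraries alone. Counts that include such genes are a description. Only cells that survived deletion and culture could be measured, and in such bulk RNA a change in the share of a cell type cannot be told apart from a change per cell.

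Changes are given as the difference of mean log2(RPKM + 0.5) with its standard error (SE), DKO minus Cre only, and folds are on that same scale, which understates the change of weakly expressed genes. The p-values are from limma's moderated test, adjusted over all 9638 genes by the Benjamini-Hochberg method, and a gene was called higher or lower at an adjusted p below 0.05. Values by library are listed in the order S16, S17, S18, S19 for Cre only and S5, S6, S7 for DKO. Means carry the SD over 4 Cre only or 3 DKO libraries.

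Before the results, the libraries themselves need description. The first principal component, with 63.2% of the variance, separated the genotypes: DKO libraries lay between 34.4 and 45.97 and Cre only libraries between -35.52 and -25.06. On the second, with 17.9%, S5 (29.42), S18 (13.96) and S19 (18.2) stood on one side and the other libraries, from -17.31 to -12.94, on the other. The labels name no batch for this set of S5, S18 and S19. The recovered depth ran from 12.805 megareads (S5) to 18.585 megareads (S6).

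Loss of both factors was accompanied by changes in 22.7% of the genes tested. In DKO cells 956 genes were higher (9.92%) and 1231 lower (12.8%), while the median gene differed by -0.001 on the log2 scale. A log2 difference of at least 2 was reached by 142 of the genes called higher and 91 of those called lower, and single genes ranged from -5.17 to 6.97. The values of the 3 DKO libraries lay wholly outside those of the 4 Cre only libraries for 2157 of the 2187 genes called, and for 35.2% of all genes tested. The counts rested on single libraries: 284 genes were called higher and 518 lower without S6, 338 and 700 without S7, 627 and 749 without S17, and 527 and 694 without S18. With only S6, S7, S16 and S17, 1625 genes were higher and 1897 lower. Called under each of the 20 alternatives were 121 of the higher and 235 of the lower genes. Genes that could not be tested under some alternative are not in these 2 counts, even if called under all the others.

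**Figure D1:**
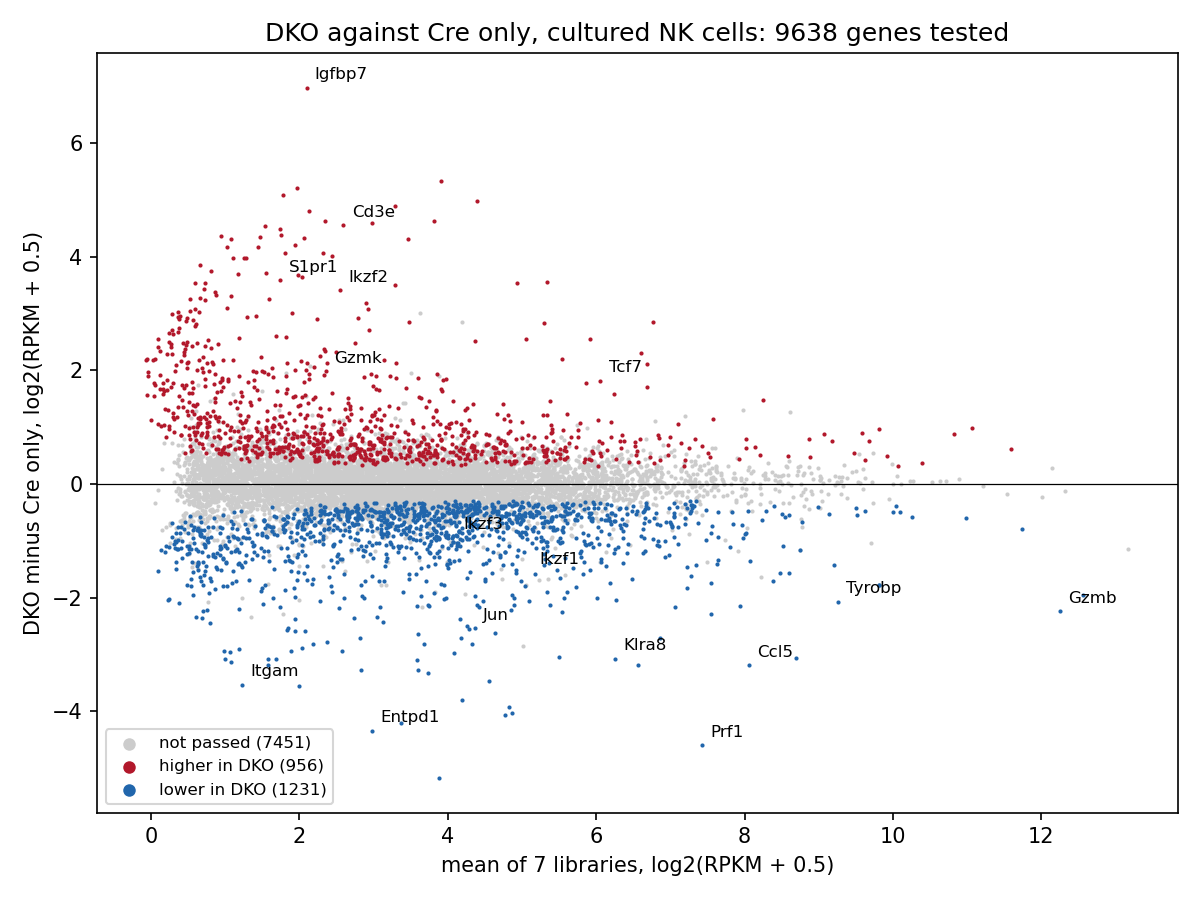
Difference between DKO and Cre only (vertical axis, log2(RPKM + 0.5)) against the mean of the 7 libraries (horizontal axis, same scale) for the 9638 genes tested, with 956 genes called higher in red and 1231 called lower in blue. Prf1, Ccl5, Tyrobp and Gzmb are strongly expressed genes among those lower in DKO, while Igfbp7, Cd3e and Ikzf2 are among those higher.

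Both targeted genes were lower in DKO cells but still detected. Ikzf1 was read at 57.7, 59.3, 61.1 and 69.4 RPKM in Cre only cells and at 38.4, 25.3 and 27.2 in DKO cells, a log2 difference of -1.04 (SE 0.16, adjusted p = 0.0037). Ikzf3 was read at 45.0, 44.8, 37.7 and 39.6 RPKM against 23.7, 20.0 and 20.9, a log2 difference of -0.94 (SE 0.11, adjusted p = 0.00151). Neither gene overlapped between the groups. RPKM sums reads over all exons, so transcripts that lack only the deleted exons still count, and these values do not measure how complete the deletion was. In the cells lacking a single gene the targeted transcript was likewise reduced and not absent, with Ikzf1 at 19.1 ± 0.662 RPKM in Ikzf1 KO (SD, n = 4) and Ikzf3 at 17.8 ± 2.37 in Ikzf3 KO (SD, n = 4). The Ikzf1 level was higher in DKO than in Ikzf1 KO cells by 0.63 on the log2 scale (adjusted p = 0.0207).

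All 4 members of the Ikaros family that could be tested were called, and the count of 2 higher and 2 lower was the same without any single library. The 2 lower members were the targeted Ikzf1 and Ikzf3, whose fall was set by the design, so the count of 4 is no result about the family. The members that were not targeted were higher in DKO cells. Ikzf2, which encodes Helios, rose from 3.26, 2.84, 0.882 and 0.664 RPKM to 16.8, 25.9 and 24.1 (log2 difference 3.40, SE 0.43, adjusted p = 0.00189). S18 and S19 were the lowest Cre only libraries, and every DKO library was above all of them. Ikzf2 was 3.71 ± 0.745 RPKM in Ikzf1 KO and 3.75 ± 1.68 in Ikzf3 KO cells (SD, n = 4 each), and DKO exceeded both, by 2.43 (adjusted p = 0.00039) and 2.49 (adjusted p = 0.00404) on the log2 scale. Ikzf4, which encodes Eos, rose from 1.71 ± 0.219 to 3.81 ± 0.701 RPKM (log2 difference 0.96, SE 0.16, adjusted p = 0.00545), but was lower in DKO than in Ikzf1 KO cells, where it reached 5.54 ± 0.423 RPKM (log2 difference -0.50, adjusted p = 0.0372).

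Genes other than antigen receptor segments and predicted genes are described first. The largest rise was that of Igfbp7, a secreted protein that binds insulin-like growth factors. It was read at 0.172 RPKM in S16, listed at 0 in the other Cre only libraries, and reached 78.1, 67.4 and 57.6 RPKM in DKO cells (log2 difference 6.97, SE 0.16, adjusted p = 8.48e-07). The level of Igfbp7 was 0.609 ± 0.290 RPKM in Ikzf1 KO and 0.0924 ± 0.0650 in Ikzf3 KO cells (SD, n = 4 each). C1qtnf1, a secreted C1q-like protein, was at most 0.0434 RPKM in Cre only cells and 9.67, 10.2 and 11.1 in DKO cells. Its mean in Ikzf1 KO cells was 4.53 ± 0.407 RPKM, between the 2 groups, and DKO exceeded it by 1.11 on the log2 scale (adjusted p = 0.000591). Maged1 (4.16 on the log2 scale), Procr, the endothelial protein C receptor (3.86), and Eng, the TGF-beta coreceptor endoglin (3.53), were also higher by mean in Ikzf1 KO than in Cre only cells and highest in DKO cells, whereas their means in Ikzf3 KO cells were at most 0.220 RPKM. Procr was listed at 0 in all Cre only libraries and at 3.50, 10.6 and 8.08 RPKM in DKO cells.

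Ccl17 and Chad spread widely over the DKO libraries. Ccl17, a chemokine that attracts CCR4-bearing lymphocytes, was at most 0.578 RPKM in Cre only cells and 3.26, 28.3 and 48.4 in DKO cells (log2 difference 4.53, SE 0.77, adjusted p = 0.0063). Chad, a cartilage matrix protein, was 4.24, 3.11, 1.72 and 1.82 RPKM in Cre only cells and 239, 45.4 and 20.2 in DKO cells (log2 difference 4.32, SE 0.73, adjusted p = 0.00627). S5 was thus the lowest DKO library for Ccl17 and the highest for Chad. Nrp1, a receptor for semaphorins and vascular endothelial growth factor, rose from at most 0.403 to 14.9, 7.45 and 8.52 RPKM. Plxdc2 (log2 difference 3.64), Ramp1, a subunit of the receptor for calcitonin gene-related peptide (3.53), Gramd3 (3.49), Cyp2j6 (3.42) and the AP-1 family factor Batf3 (3.32) were also among the 20 largest rises. Ctsg, the granule protease cathepsin G, rose by 3.72 (adjusted p = 0.00985), a call that was lost without S6 (adjusted p = 0.0508).

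The largest fall among these genes was that of Prf1, which encodes perforin, the protein that forms pores in the target cell. It was read at 740.3, 1095, 654 and 390.2 RPKM in Cre only cells and at 10.0, 30.2 and 66.4 in DKO cells, 0.0412 of the control level (log2 difference -4.60, SE 0.59, adjusted p = 0.00203). The highest DKO library was below the lowest control. Entpd1, which encodes CD39, an enzyme that degrades extracellular ATP, fell from 23.4, 29.1, 35.0 and 26.2 RPKM to 0.878, 1.22 and 0.694 (log2 difference -4.34, SE 0.18, adjusted p = 1.13e-05). Ltb4r1, the leukotriene B4 receptor, fell from 92.0 ± 18.1 to 5.17 ± 1.91 RPKM (log2 difference -4.06, SE 0.25, adjusted p = 0.000102). Osgin1 (log2 difference -4.20), the proteases Adam8 (-4.03) and Mmp9 (-3.80), the decoy receptor Il1r2 (-3.56), the Src family kinase Fgr (-3.27), Ncf1, a subunit of the phagocyte NADPH oxidase (-3.07), and the feedback inhibitor of EGF receptor signalling Errfi1 (-3.19) were among the 20 largest falls. Slfn8 showed little spread, at 17.5, 18.1, 20.0 and 17.9 RPKM in Cre only cells against 1.33, 1.46 and 1.53 in DKO cells (log2 difference -3.28, SE 0.10, adjusted p = 2.17e-06). Of the 20, the calls of Tmem119 (adjusted p = 0.0587 without S6), Aldoc (0.0842 without S6 and 0.0569 without S18) and Cd300lb (0.0776 without S6 and 0.0553 without S7) depended on single libraries.

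**Figure D2:**
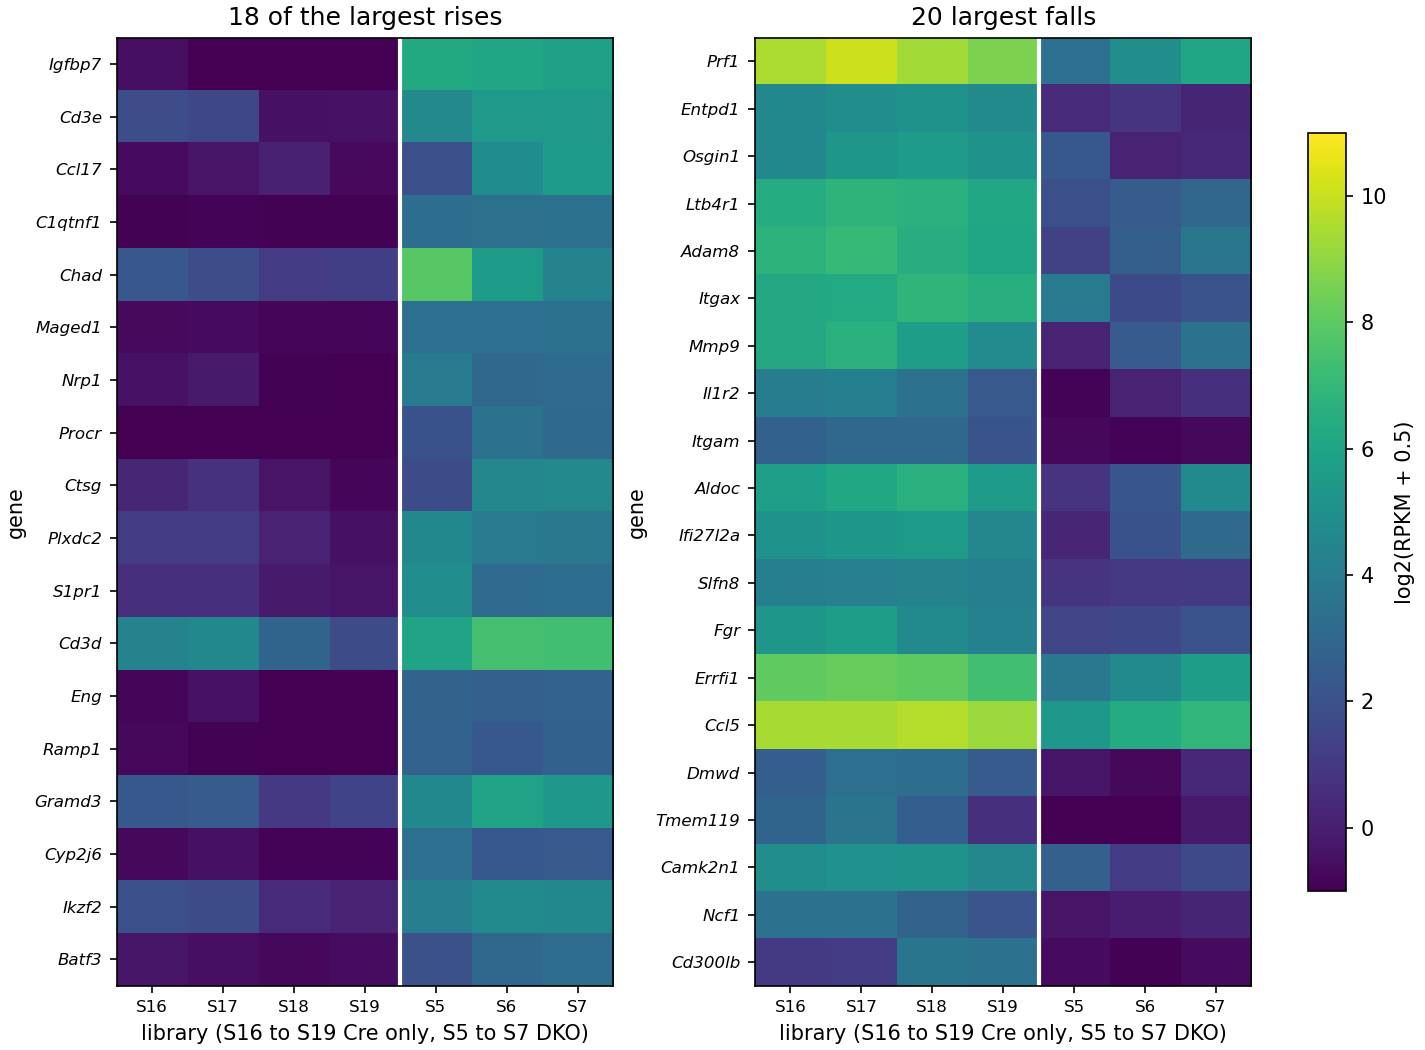
Level of 18 of the 20 largest rises (left) and the 20 largest falls (right) in each library, as log2(RPKM + 0.5) on a colour scale from -1 to 11, with the 4 Cre only libraries left of the white line and the 3 DKO libraries right of it. The groups do not overlap for any of these genes, which is part of how they were chosen.

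Promoters were examined for the core motif bound by Ikaros family proteins, TGGGAA, on either strand. Windows of 300 bases, from 250 bases before to 50 after the transcription start, were taken from RefSeq on GRCm38.p6, and 7376 of the tested genes had one by symbol. The motif was found in 27.4% of 690 promoters of genes called higher, in 21.2% of 919 of genes called lower, in 22.5% of those of all tested genes and in 25.5% of all 27025 promoters in the table. Among genes past a log2 difference of 1 in either direction, the motif was in 28.8% of 260 promoters of the higher and 27.3% of 282 of the lower genes. These shares describe the letters in the windows, and no binding was measured. The promoters of the 2 largest rises and the 2 largest falls are shown 5′ to 3′ on the strand of the gene, to set the genes with the strongest responses side by side, with the motif in capitals. They lie at chr5:77407996-77408295 on the minus strand (Igfbp7), chr9:45009562-45009861 on the minus strand (Cd3e), chr10:61297586-61297885 on the plus strand (Prf1) and chr19:40612116-40612415 on the plus strand (Entpd1).
Igfbp7: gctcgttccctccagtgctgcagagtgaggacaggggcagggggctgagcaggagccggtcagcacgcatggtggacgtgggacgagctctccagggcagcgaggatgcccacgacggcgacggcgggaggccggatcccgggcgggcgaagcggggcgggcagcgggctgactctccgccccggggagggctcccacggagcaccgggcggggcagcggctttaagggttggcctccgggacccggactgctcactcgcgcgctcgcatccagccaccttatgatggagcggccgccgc
Cd3e: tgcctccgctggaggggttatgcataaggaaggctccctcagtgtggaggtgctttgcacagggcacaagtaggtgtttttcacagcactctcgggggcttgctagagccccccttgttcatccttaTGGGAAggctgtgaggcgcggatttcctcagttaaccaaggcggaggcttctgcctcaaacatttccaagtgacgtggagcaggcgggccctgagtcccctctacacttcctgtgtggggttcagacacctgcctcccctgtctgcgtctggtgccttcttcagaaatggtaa
Prf1: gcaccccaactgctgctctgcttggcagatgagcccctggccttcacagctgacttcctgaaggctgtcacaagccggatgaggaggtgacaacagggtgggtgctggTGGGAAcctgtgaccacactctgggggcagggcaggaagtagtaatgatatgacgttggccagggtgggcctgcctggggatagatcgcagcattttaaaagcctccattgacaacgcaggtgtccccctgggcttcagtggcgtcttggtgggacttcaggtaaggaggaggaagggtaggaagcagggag
Entpd1: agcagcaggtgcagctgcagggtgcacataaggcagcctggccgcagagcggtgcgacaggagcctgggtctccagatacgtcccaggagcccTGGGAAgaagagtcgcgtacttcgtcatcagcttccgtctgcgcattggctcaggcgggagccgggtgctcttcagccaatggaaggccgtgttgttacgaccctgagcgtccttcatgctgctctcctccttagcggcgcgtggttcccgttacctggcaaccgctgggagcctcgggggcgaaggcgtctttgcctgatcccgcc
The motif occurred once, on the gene's own strand, in the windows of Cd3e, Prf1 and Entpd1, and not in that of Igfbp7. It was thus present upstream of a gene that rose and of genes that fell.

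Genes of the T cell lineage were among those that rose most. Cd3e, a signalling chain of the T cell receptor complex, was 3.10, 2.50, 0.237 and 0.240 RPKM in Cre only cells and 24.8, 42.4 and 44.8 in DKO cells (log2 difference 4.55, SE 0.62, adjusted p = 0.00239). The lowest DKO library was far above the highest control. In Ikzf1 KO and Ikzf3 KO cells Cd3e stayed at 1.91 ± 1.15 and 1.39 ± 0.338 RPKM (SD, n = 4 each), and DKO was higher than both (adjusted p = 0.00129 and 0.000162). Cd3d rose from 20.4, 23.9, 6.75 and 2.97 RPKM to 63.8, 177 and 164 (log2 difference 3.54, SE 0.70, adjusted p = 0.0115, or 0.0577 without S6). Cd3g, the remaining CD3 chain, overlapped between the groups, at 32.2 ± 19.5 and 46.3 ± 14.1 RPKM (log2 difference 0.76, SE 0.59, adjusted p = 0.375). Of 13 tested genes of the CD3 complex and its signalling, 5 (38.5%) were higher and 1 (7.69%) lower. The shares over all genes were 9.92% and 12.8%. Besides Cd3e and Cd3d the higher ones were the adaptor Lat (log2 difference 1.22, adjusted p = 0.00936), the costimulatory receptor Cd28 (1.86, adjusted p = 0.0149) and Ubash3a (1.16, adjusted p = 0.0431), and the lower one was the kinase Zap70 (-0.47, adjusted p = 0.0435). The call of Cd28 was lost without S6 (adjusted p = 0.0614) or S7 (0.0532), that of Ubash3a without S6, S7, S16, S17 or S18 (0.0788 to 0.1525) and that of Zap70 without any library but S19 (0.0636 to 0.1074). The counts were 2 higher and 0 lower without S6, 3 and 0 without S7, and 4 and 0 without S16, S17 or S18. The proximal kinase Lck (226.6 ± 16.7 against 243.9 ± 39.4 RPKM) did not pass the test.

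Of 52 segments of the T cell receptor loci tested, 33 (63.5%) were higher and 7 (13.5%) lower, where the shares over all genes were 9.92% and 12.8%. The share of lower segments was thus near that of all genes. Of the 52, 28 reached an RPKM of 1 in at least 3 Cre only libraries, so the others needed DKO libraries to be tested. Among these others, 12 reached it in all 3 DKO libraries and in no Cre only library. They entered the test through the group in which they were high. The counts are therefore given as a description. Trac, the constant region of the alpha chain, rose from 26.2, 23.3, 13.3 and 9.03 RPKM to 76.8, 185 and 121 (log2 difference 2.82, SE 0.41, adjusted p = 0.00328). Of the beta chain constant regions, Trbc2 rose (log2 difference 1.48, SE 0.29, adjusted p = 0.0106), while Trbc1 was 296.0 ± 21.9 RPKM in Cre only and 309.1 ± 104 in DKO cells and did not pass. Among gamma chain segments Tcrg-C2 went from 7.87, 5.65, 0.975 and 0.669 RPKM to 65.7, 149 and 191 (log2 difference 5.33, SE 0.74, adjusted p = 0.00265), and Trgj1 and Tcrg-V4 rose by 4.63 and 4.38. Segments of the delta locus were among the lower ones. Trdj1 fell from 54.12 ± 8.81 to 13.35 ± 3.89 RPKM (log2 difference -2.01, adjusted p = 0.00101) and Trdv4 from 41.31 ± 4.11 to 7.341 ± 4.51 (log2 difference -2.55, adjusted p = 0.00161). The lower segments also included Trbj1-1 (log2 difference -2.28, adjusted p = 0.00244). Without S5, S6 and S7 in turn, 20, 16 and 17 segments were higher, and without S6 4 were lower. In these fits the 12 segments above could not reach the level required for testing. The segments are short and similar to one another, RPKM of such short features rests on few reads, and reads shared between copies may be split, so single segments are uncertain.

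T cells themselves carry these transcripts, and the values of T cell markers stand here for that reason. Summed over 10 T cell markers, RPKM ranged from 439.185 to 693.559 in Cre only and from 793.462 to 1638.48 in DKO libraries. Of the 7 tested markers 4 (57.1%) were higher and 0 lower. The shares over all genes were 9.92% and 12.8%. The coreceptors that define mature alpha-beta T cells stayed low: Cd4 was at most 0.523 RPKM in Cre only and 1.30 in DKO libraries, and Cd8a at most 0.761 and 0.0554 RPKM. Cd6 was at most 0.270 and 1.37 RPKM. The part of T cells in the result was not tested beyond these values. Of 11 markers by which NK cells are recognised, 1 (9.09%) was higher (Eomes), near the share of all genes. Lower were 4 (36.4%), namely Tyrobp, Fcgr3, Cd244a and Nkg7. Summed over the 11 markers, RPKM ranged from 3270.324 to 3637.0 in Cre only and from 2005.093 to 2300.185 in DKO libraries, without overlap. Most of this fall lay in Nkg7 and in Tyrobp, which ranged from 1036 to 1308 RPKM in Cre only and from 220 to 343 in DKO libraries. The sum therefore does not describe the 11 markers one by one. Nkg7, a membrane protein of cytotoxic granules, was 1190 ± 42.2 RPKM in Cre only and 847 ± 123 in DKO cells (log2 difference -0.50, adjusted p = 0.0201), a call lost without S7, S17 or S18 (adjusted p = 0.06949, 0.05557 and 0.06007). Klrd1, which encodes CD94, was 303.6 ± 35.2 RPKM in Cre only and 322.9 ± 44.0 in DKO cells, Ncr1, which encodes NKp46, 146.7 ± 38.1 and 201.4 ± 29.4, and Klrb1c, which encodes NK1.1, 197.5 ± 18.6 and 189.9 ± 24.9. Klrd1, Ncr1 and Klrb1c did not pass the test.

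Markers of other cell types were summed in the same way. Summed over 4 macrophage and monocyte markers, RPKM ranged from 18.965 to 38.812 in Cre only and from 5.772 to 23.561 in DKO libraries, and over 2 neutrophil and mast cell markers from 9.797 to 50.545 and from 5.376 to 38.993. The sum over 6 dendritic cell markers ranged from 136.316 to 161.068 and from 89.24 to 174.475. Its members moved both ways: Itgax ranged from 76.0 to 114 RPKM in Cre only and from 2.71 to 15.5 in DKO libraries, and Bst2 from 44.2 to 59.1 and from 66.6 to 162. The sum over 2 stromal and endothelial markers, Igfbp7, which rose, and Pecam1, which fell, ranged from 34.708 to 48.935 and from 68.87 to 87.571. For 3 B cell markers the sum was 20.764 to 40.238 in Cre only and 142.821 to 195.735 in DKO libraries, nearly all of it Ighm, the immunoglobulin heavy chain constant region. Ighm rose from 20.4, 22.1, 39.9 and 32.9 RPKM to 195, 163 and 140.3 (log2 difference 2.55, SE 0.25, adjusted p = 0.000659). Cd79b, a chain of the B cell receptor, ranged from 0.156 to 0.522 RPKM in Cre only and from 0.516 to 2.23 in DKO libraries. Ighd ranged from 0.0322 to 0.156 and from 0.465 to 0.884 RPKM. Cd79b and Ighd were below the level required for testing. Traces of Lyz2 (0.918 to 1.94 RPKM) and of the platelet gene Pf4 (0.931 to 4.12 RPKM) were found in all 3 DKO libraries and listed at 0 in all 4 Cre only libraries, as descriptions, since both were below the level required for testing. The part of these cells in the results was not tested.

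Of 12 tested genes of less mature or memory-like NK cells, 7 (58.3%) were higher and 1 (8.33%) lower, with a median log2 difference of 0.68. The shares over all genes were 9.92% and 12.8%. Only 9 of the 12 reached an RPKM of 1 in at least 3 Cre only libraries. Ccr7 reached it in all DKO and no Cre only library, so that it entered the test through the group in which it was high. The counts are therefore given as a description. Tcf7, which encodes the factor TCF-1, rose from 50.1, 40.8, 26.5 and 39.6 RPKM to 190.3, 115 and 115 (log2 difference 1.82, SE 0.25, adjusted p = 0.00262). Every DKO library was above every Cre only library for Tcf7. Ccr7, the receptor for lymph node chemokines (log2 difference 2.03, adjusted p = 0.00225), Cxcr3 (1.04, adjusted p = 0.00415) and Emb (0.79, adjusted p = 0.00576) rose as well. Il7r, the interleukin 7 receptor, rose from at most 1.24 RPKM to 7.43, 2.46 and 2.55 (log2 difference 2.15, SE 0.53, adjusted p = 0.0243), but was not called without S6 (adjusted p = 0.0587), S7 (0.0502) or S18 (0.0619). The member that fell was Kit, the receptor for stem cell factor, from 104 ± 37.2 to 39.9 ± 8.53 RPKM (log2 difference -1.31, adjusted p = 0.0176), a call lost without S6 (adjusted p = 0.0781) or S7 (0.05005). Cd27 and Lef1 did not pass, with log2 differences of 0.37 and 0.02. The list held 4 higher and 0 lower genes without S6 or S7.

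Receptors that govern the exit of lymphocytes from tissues, and other chemotactic receptors, moved both ways. Of 15 tested, 4 (26.7%) were higher and 5 (33.3%) lower, where the shares over all genes were 9.92% and 12.8%. S1pr1, the sphingosine 1-phosphate receptor used for exit into blood and lymph, rose from 1.04, 1.07, 0.414 and 0.301 RPKM to 28.6, 8.65 and 9.46 (log2 difference 3.58, SE 0.44, adjusted p = 0.00166). Cd69, whose product holds that receptor inside the cell, fell from 27.0, 26.2, 18.1 and 15.3 RPKM to 5.49, 10.3 and 10.3 (log2 difference -1.28, SE 0.28, adjusted p = 0.0156). Klf2, a transcription factor known to activate S1pr1, rose from 3.26, 2.87, 5.99 and 5.93 RPKM to 20.6, 10.5 and 16.3 (log2 difference 1.72, SE 0.31, adjusted p = 0.00799). Gpr183, an oxysterol receptor that guides cells within lymphoid tissue, rose from 2.53 ± 1.00 to 27.1 ± 10.9 RPKM (log2 difference 3.18, SE 0.33, adjusted p = 0.000824). Ccr2 rose by 0.67 (adjusted p = 0.00545) and Ltb4r1, described above, fell. Counts were 3 higher and 2 lower without S6 or S7, 4 and 3 without S17, and 3 and 3 without S18.

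Granule effectors changed in opposite directions, with 4 of 15 higher (26.7%) and 5 lower (33.3%). The shares over all genes were 9.92% and 12.8%. Gzma and Gzmb, the most abundant killing proteases of NK cells, fell with perforin. Gzmb was 9827, 11121, 9187 and 7955 RPKM in Cre only cells and 753, 3134 and 3432 in DKO cells (log2 difference -2.23, SE 0.48, adjusted p = 0.0157). Gzma was 11749, 10819, 11394 and 9506 RPKM against 1422, 3858 and 3974 (log2 difference -1.95, SE 0.34, adjusted p = 0.00669). S5 was the lowest library for both and for Prf1. Srgn, the proteoglycan that packs granzymes in the granule, fell from 333 ± 40.3 to 182 ± 30.5 RPKM (log2 difference -0.87, adjusted p = 0.00563). Gzmk, a granzyme typical of less mature cells, rose instead, from 2.19, 1.96, 3.10 and 2.25 RPKM to 10.1, 14.7 and 8.41 (log2 difference 1.98, SE 0.21, adjusted p = 0.000864). Gzmm and the chymase Cma1 were also called higher (adjusted p = 0.0168 and 0.0386), at no more than 8.332 and 18.96 RPKM. Gzmc, Gzmd, Gzme, Gzmf and Gzmg did not pass, and their Cre only libraries differed widely: Gzmd ranged from 49.49 to 950.2 RPKM there and from 45.4 to 397.3 RPKM in DKO cells. Genes of this granzyme cluster are similar in sequence, and reads shared between them may be split. Without S6 the list held 1 higher gene and without S7 2, while 4 to 6 were lower without any single library. With S16 and S17 left out together only 1 of the list was lower, and Gzma (adjusted p = 0.0564) and Gzmb (0.0976) were not called.

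The machinery that moves granules to the synapse and releases them was lower in part, with 7 of 13 tested genes lower (53.8%) and 1 higher (7.69%). The shares over all genes were 12.8% and 9.92%. Dock8, a regulator of the actin cytoskeleton, fell from 114, 134, 135 and 105 RPKM to 61.6, 42.5 and 53.9 (log2 difference -1.21, SE 0.15, adjusted p = 0.00189), and Sytl2 from 19.3 ± 3.36 to 9.55 ± 1.53 RPKM (log2 difference -0.98, adjusted p = 0.00579). Coro1a fell by 0.55 (adjusted p = 0.0136). The priming factor Unc13d was called lower by 0.62 on the log2 scale (adjusted p = 0.0242), a call lost without S6, S7, S17 or S18 (adjusted p = 0.0897, 0.09, 0.0556 and 0.0677). Rab27a, at 47.46 ± 4.26 and 47.78 ± 0.547 RPKM, and Lamp1, at 74.28 ± 9.54 and 87.37 ± 12.2 RPKM, did not pass. Only 3 genes of the list were lower without S6 or S7, and 4 without S17 or S18. Its 1 higher gene was Vamp4, and 0 genes were higher without S5, S6, S7, S17, S18 or S19.

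Ligands and secreted mediators of NK cells also changed. Ccl5, a chemokine stored by cytotoxic lymphocytes, fell from 684, 689.7, 801 and 580.4 RPKM to 41.7, 84.2 and 119.7 (log2 difference -3.18, SE 0.32, adjusted p = 0.000712). Ccl4 fell from 394, 463, 199 and 126 RPKM to 15.8, 55.9 and 68.7 (log2 difference -2.71, SE 0.60, adjusted p = 0.017, or 0.0502 without S6). Ccl3, its neighbour, was called lower (log2 difference -2.03, adjusted p = 0.0381) but not without S5, S6, S16, S17 or S18, where the adjusted p ranged from 0.0643 to 0.0894. Without S5 the log2 difference of Ccl3 was -1.42. Fasl, the ligand of the death receptor Fas, fell from 55.5 ± 2.44 to 27.1 ± 9.41 RPKM (log2 difference -1.08, adjusted p = 0.0152), while Tnfsf10, which encodes TRAIL, rose from 31.1 ± 5.33 to 55.3 ± 7.45 RPKM (log2 difference 0.83, adjusted p = 0.0109). Ifng, which encodes interferon gamma, was 52.7, 68.2, 20.5 and 15.6 RPKM in Cre only and 2.59, 15.7 and 12.5 in DKO cells and did not pass (adjusted p = 0.0771). Xcl1 did not pass either, at 812 ± 422 and 1112 ± 434 RPKM.

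Of 11 tested genes of the Ly49 receptors, which bind MHC class I and are encoded by Klra genes, 5 (45.5%) were lower and 1 (9.09%) higher. The shares over all genes were 12.8% and 9.92%, so that the share of higher members was near that of all genes. Klra8, which encodes the activating receptor Ly49H, was 196, 179.7, 221 and 164 RPKM in Cre only cells and 32.0, 19.2 and 17.4 in DKO cells (log2 difference -3.07, SE 0.21, adjusted p = 0.000175). Its level was also below that of Ikzf1 KO cells, 109 ± 24.2 RPKM (log2 difference -2.25, adjusted p = 0.00112), and of Ikzf3 KO cells, 90.9 ± 50.8 RPKM (-1.87, adjusted p = 0.0347). Klra5 (log2 difference -2.50), Klra4, which encodes Ly49D (-2.14), Klra9 (-2.12) and the pseudogene Klra14-ps (-1.52) fell too. Klra7 (263.1 ± 23.4 and 232.9 ± 62.1 RPKM) and Klra3 (41.81 ± 1.35 and 41.42 ± 12.1 RPKM) did not pass. Klra1, which encodes Ly49A, was called higher (24.8, 20.4, 49.6 and 52.1 against 63.9, 194 and 129.6 RPKM, adjusted p = 0.0274), but not without S6, S7, S16 or S17, where the adjusted p ranged from 0.0605 to 0.107. The 5 lower members were called without any single library. These genes are close paralogs, and reads shared between them may be split.

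Activating receptors and their adaptors were more often lower, 8 of 20 against 3 higher. Tyrobp, which encodes DAP12, the signalling partner of activating Ly49 receptors, fell from 1036, 1122, 1308 and 1068 RPKM to 343, 220.1 and 255 (log2 difference -2.07, SE 0.16, adjusted p = 0.000303). Fcgr3, the receptor for antibody-coated targets, fell from 119.8, 108, 200.2 and 175 RPKM to 58.9, 42.7 and 37.4 (log2 difference -1.67, SE 0.25, adjusted p = 0.00361). No library of one group reached the other for either gene. Lat2 (log2 difference -1.92), the adaptor Sh2d1b1 (-1.71), Sh2d2a (-1.21), the receptor Cd244a (-1.10) and the phospholipase Plcg2 (-0.95) fell as well, each called without any single library. Cd226, which encodes the adhesion and activating receptor DNAM-1, rose from 35.3, 28.6, 20.2 and 24.4 RPKM to 77.1, 82.5 and 62.3 (log2 difference 1.45, SE 0.19, adjusted p = 0.0023). It was above both single knockouts, by 0.77 over Ikzf1 KO (adjusted p = 0.00579) and 3.20 over Ikzf3 KO (adjusted p = 0.00212). Fcer1g, at 537.4 ± 106 and 394.9 ± 67.2 RPKM, did not pass. Without S6, S7, S16 or S17 1 gene of the list was higher, and 7 or 8 were lower. Klrc1, which encodes the inhibitory receptor NKG2A, rose from 67.4 ± 32.5 to 203 ± 33.1 RPKM (log2 difference 1.71, adjusted p = 0.0149, or 0.0693 without S6), and Klrk1, which encodes NKG2D, did not pass (log2 difference 0.45, adjusted p = 0.0647).

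Of 10 tested genes in a list of inhibitory checkpoints and paired receptors, not all of them inhibitory, 5 (50.0%) were lower and 0 higher. The shares over all genes were 12.8% and 9.92%, and the median log2 difference of the list was -1.09. Beside Entpd1, Lag3 fell from 106, 106, 106 and 67.0 RPKM to 27.2, 30.0 and 43.0 (log2 difference -1.51, SE 0.22, adjusted p = 0.00305), and the paired receptor Cd200r4 fell by 1.28 on that scale (adjusted p = 0.00304). Havcr2, which encodes TIM-3, fell from 15.4, 20.3, 13.2 and 6.54 RPKM to 1.16, 1.64 and 4.49 (log2 difference -2.36, SE 0.45, adjusted p = 0.0104, or 0.0528 without S6). In Ikzf3 KO cells Havcr2 stood at 64.5 ± 22.4 RPKM, 4.55 above DKO on the log2 scale (adjusted p = 0.0011). The list held 3 lower genes without S6.

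Genes of 4 leukocyte integrin chains of the beta-2 family were lower. Itgam, which encodes CD11b, a marker of NK cell maturation, fell from 6.19, 7.59, 7.88 and 3.85 RPKM to 0.0935, 0.0488 and 0.0900 (log2 difference -3.53, SE 0.23, adjusted p = 0.000149). Itgax, which encodes CD11c, fell from 76.0, 80.8, 114 and 94.6 RPKM to 15.5, 2.71 and 3.71 (log2 difference -3.92, SE 0.50, adjusted p = 0.00187), and S5 was the highest DKO library. Their shared partner Itgb2 fell from 310.2 ± 25.9 to 144 ± 15.8 RPKM (log2 difference -1.11, adjusted p = 0.000864) and Itgad by 1.39 (adjusted p = 0.00187). Itgal, which encodes CD11a, did not pass (adjusted p = 0.155), nor did Itga2, which encodes CD49b (5.844 ± 2.68 and 5.024 ± 1.09 RPKM). Of 13 tested integrins 5 (38.5%) were lower and 2 (15.4%), Itga6 and Itgb1, higher. The shares over all genes were 12.8% and 9.92%. The call of Itga6 was lost without S6 (adjusted p = 0.0594) or S7 (0.0546), and that of Itgb1 without S6, S7, S18 or S19 (0.0626 to 0.1216). The higher count was 0 without S6 or S7 and 1 without S18 or S19, and the lower count 4 to 6 without any single library. Pecam1, an adhesion molecule of NK and endothelial cells, fell from 39.6 ± 6.42 to 8.87 ± 2.79 RPKM (log2 difference -2.13, adjusted p = 0.000842).

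IL-15 was the cytokine in the medium. Of 15 tested genes for its receptor and that of IL-2 and for the signalling behind them, 6 were lower and 2 higher in transcript level. Jak3, the kinase bound to the common gamma chain, fell from 74.9, 88.1, 73.2 and 63.5 RPKM to 17.3, 21.7 and 33.3 (log2 difference -1.66, SE 0.22, adjusted p = 0.00214). Stat3 fell from 38.6 ± 5.77 to 16.8 ± 4.10 RPKM (log2 difference -1.19, adjusted p = 0.0044), and the phosphoinositide 3-kinase subunits Pik3r1 and Pik3cd by 0.89 and 0.74 (adjusted p = 0.00791 and 0.011, the latter 0.0502 without S6). The feedback inhibitor Socs2 rose from 6.41 ± 0.477 to 13.7 ± 1.61 RPKM (log2 difference 1.03, adjusted p = 0.00123). Stat5a and Stat5b did not pass, with log2 differences of -0.05 and -0.11. The list held 3 lower genes without S6 and 1 higher gene without S7. Of 13 other cytokine receptors 6 (46.2%) were lower and 2 (15.4%) higher, and 5 to 7 were lower without any single library. Il21r fell from 72.6, 81.8, 58.4 and 44.4 RPKM to 11.2, 16.3 and 17.4 (log2 difference -2.05, adjusted p = 0.0012) and Il10ra from 38.1 ± 2.46 to 13.1 ± 5.57 RPKM (log2 difference -1.57, adjusted p = 0.00331). Il18r1, a receptor chain for interleukin 18, rose from 26.7 ± 1.85 to 63.7 ± 16.1 RPKM (log2 difference 1.21, adjusted p = 0.00226).

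**Figure D3:**
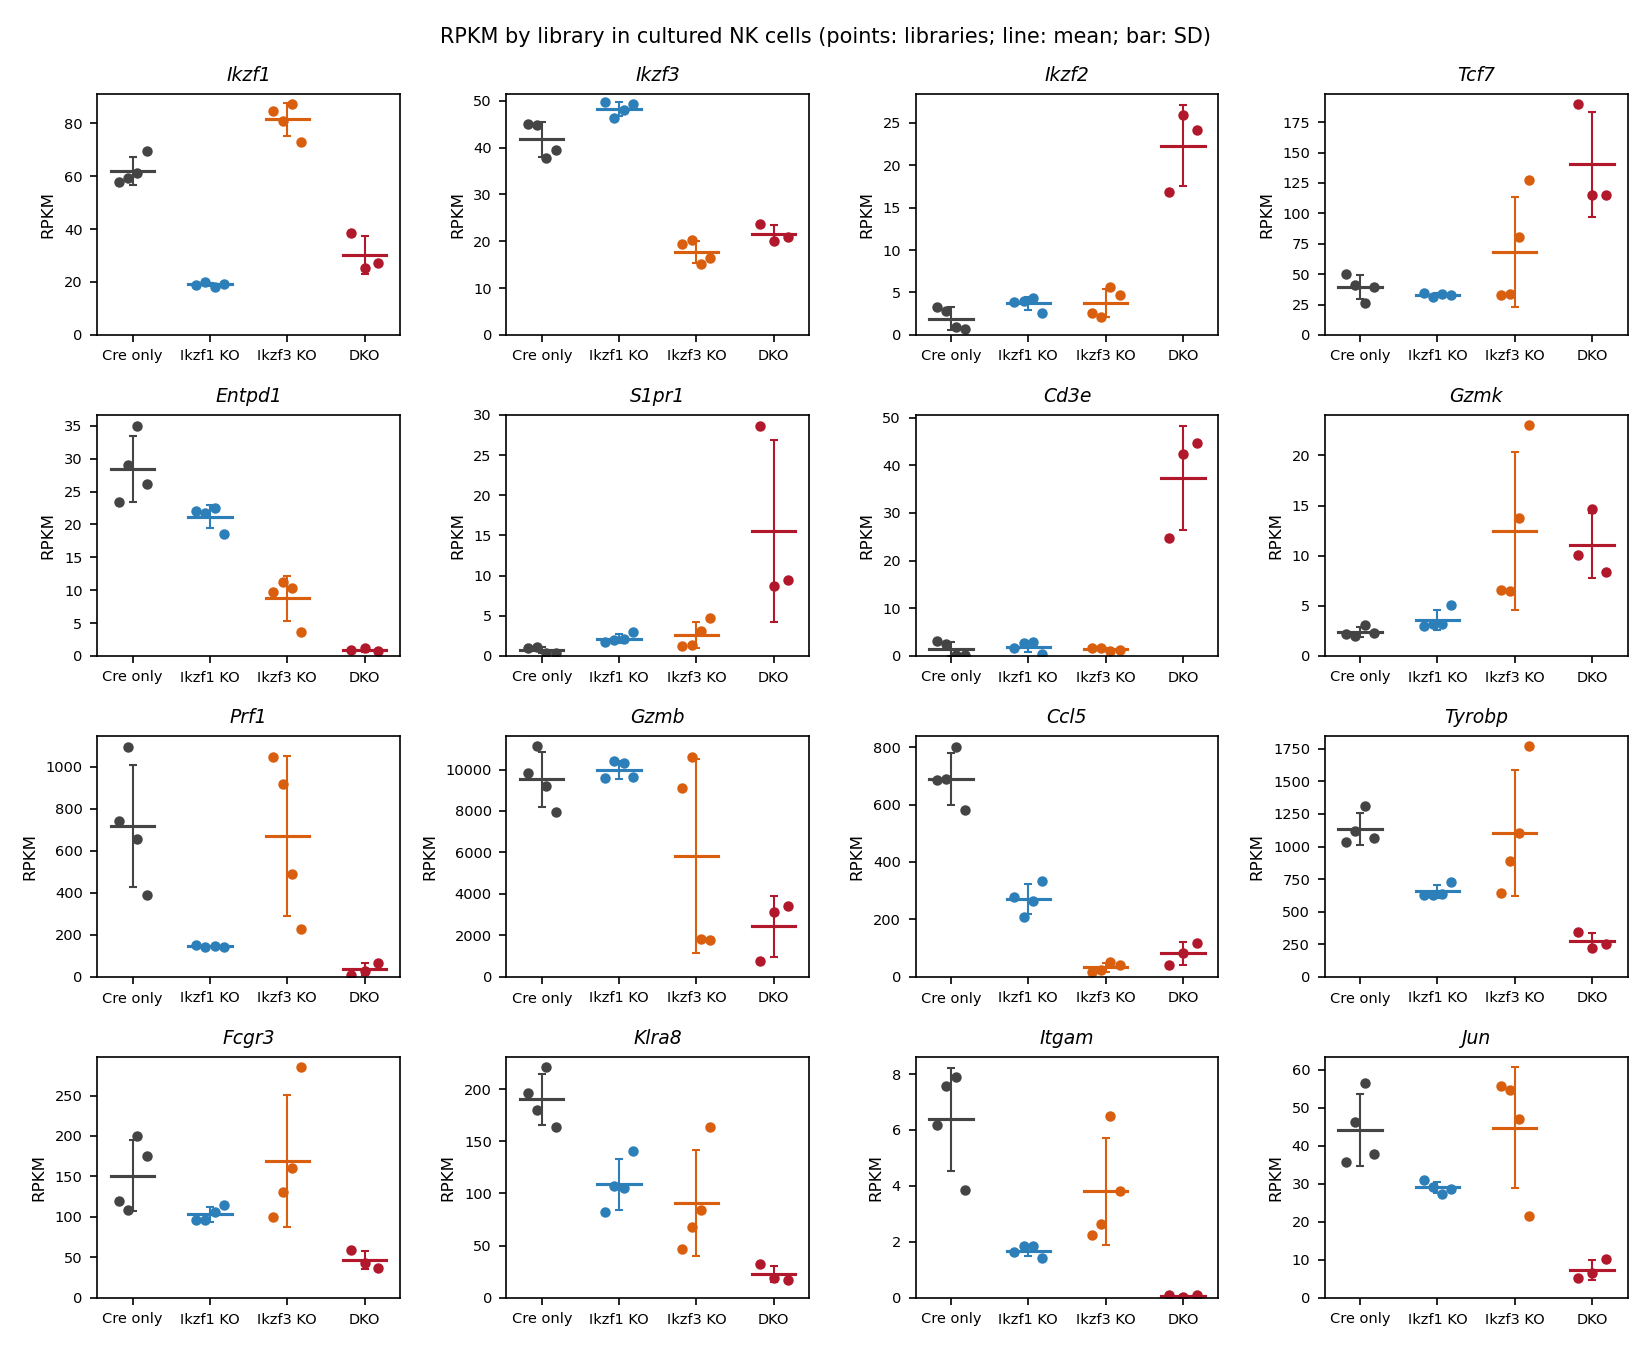
RPKM of 16 genes in every cultured library of the 4 genotypes (vertical axes from 0), with points for libraries, a line for the mean and a bar for the SD.  Prf1 ranges from 10.0 to 66.4 RPKM in DKO and from 390.2 to 1095 in Cre only libraries, and Cd3e from 24.8 to 44.8 and from 0.237 to 3.10.

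The study's title names AP-1 complexes, dimers of Jun, Fos and related factors that are induced by activating signals, and the family was followed for that reason. Of 11 members tested 4 (36.4%) were lower and 1 (9.09%) higher. The shares over all genes were 12.8% and 9.92%, so that the share of higher members was near that of all genes. Jun was 35.8, 46.1, 56.5 and 37.7 RPKM in Cre only cells and 5.18, 6.51 and 10.3 in DKO cells (log2 difference -2.54, SE 0.24, adjusted p = 0.000649). Its means in Ikzf1 KO and Ikzf3 KO cells were 29.1 ± 1.49 and 44.7 ± 15.9 RPKM (SD, n = 4 each), and DKO was below both (adjusted p = 0.000789 and 0.00612). Jund fell from 189, 219.9, 192 and 140.0 RPKM to 72.2, 69.9 and 89.5 (log2 difference -1.25, SE 0.17, adjusted p = 0.00236), and Fos, low in all libraries, from 1.70 ± 0.250 to 0.493 ± 0.254 RPKM (log2 difference -1.18, adjusted p = 0.00859). Fosl2 was called lower (adjusted p = 0.0388), but not without S5, S6, S16, S17 or S18, where the adjusted p ranged from 0.0744 to 0.141. Junb was 206, 262, 103 and 74.2 RPKM against 55.1, 60.7 and 74.2 and did not pass (adjusted p = 0.0745), and Batf differed by 0.02. The member that rose was Batf3, from at most 0.303 RPKM to 3.49, 7.68 and 9.42 (log2 difference 3.32, SE 0.30, adjusted p = 0.000551). Without S5, S6 or S7 Batf3 was below the level required for testing and 0 members were higher.

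Immediate-early genes outside AP-1 were lower in 7 of 15 (46.7%) and higher in 0, with a median log2 difference of -0.95. The shares over all genes were 12.8% and 9.92%. Egr1 fell to 3.38, 3.95 and 7.33 RPKM in DKO cells, below every Cre only library, the lowest of which was at 12.2 RPKM (log2 difference -2.15, SE 0.37, adjusted p = 0.00632), and Dusp5 from 109 ± 26.7 to 39.5 ± 6.99 RPKM (log2 difference -1.44, adjusted p = 0.00354). The lower count was 2 without S6, 4 without S7, 3 without S16, 3 without S17 and 4 without S18, and 11 in a fit with a term for the set of S5, S18 and S19. Myc, which belongs to the same list, did not pass (log2 difference 0.19).

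Of 14 transcription factors of the NK lineage tested, 3 (21.4%) were higher (Eomes, Klf2 and Aff3) and 4 (28.6%) lower (Nfil3, Ets1, Foxo1 and Bhlhe40). The shares over all genes were 9.92% and 12.8%. Nfil3, a factor needed for NK cell development, was 139.6, 166, 60.5 and 37.6 RPKM in Cre only and 16.1, 20.2 and 35.4 in DKO cells (log2 difference -1.89, SE 0.53, adjusted p = 0.0363). Its groups did not overlap, and the call was lost without any single library other than S19, where the adjusted p ranged from 0.05262 (without S7) to 0.1225 (without S6). Ets1 fell from 97.2 ± 5.55 to 63.8 ± 11.9 RPKM (log2 difference -0.62, adjusted p = 0.0179, or 0.05161 without S7). Tbx21, which encodes T-bet, was 60.01 ± 7.03 RPKM in Cre only and 57.82 ± 21.2 in DKO cells, with S5 at 82.1, and did not pass. Eomes, its relative, was called higher (50.7, 50.4, 54.2 and 58.6 against 79.8, 67.8 and 67.8 RPKM, adjusted p = 0.0283), a call lost without S6, S7, S16, S17 or S18, where the adjusted p ranged from 0.0637 to 0.0765. Id2 did not pass (log2 difference -0.31). Aff3 rose from 0.382 ± 0.0585 to 3.29 ± 1.53 RPKM (log2 difference 2.03, SE 0.25, adjusted p = 0.00166). It was below 1 RPKM in all Cre only libraries and thus entered the test through the group in which it was high. Bhlhe40 fell from 172, 189, 120.2 and 103 RPKM to 52.6, 55.2 and 78.1 (log2 difference -1.21, adjusted p = 0.0119, or 0.056 without S6). The counts of higher and lower factors were 1 and 1 without S6 or S7, and 2 and 2 without S16, S17 or S18.

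For metabolic and proliferation genes the number of calls depended on single libraries. Of 17 glycolysis genes 10 (58.8%) were lower and 0 higher, with a median log2 difference of -1.56. The shares over all genes were 12.8% and 9.92%. Gapdh was 580.4, 646, 563 and 478 RPKM in Cre only and 117, 178 and 332 in DKO cells (log2 difference -1.56, SE 0.31, adjusted p = 0.0117, or 0.05445 without S6), and Gpi1 354, 397, 302 and 230.0 RPKM against 62.9, 76.7 and 169.8 (-1.74, adjusted p = 0.0109, or 0.0543 without S6). S7 was the highest DKO library for both. The number of lower glycolysis genes was 0 without S6, 5 without S16, 6 without S17 and 4 without S18, and 15 with a term for the set of S5, S18 and S19. Their median log2 difference ranged from -2.01 to -1.16 when single libraries were left out. All 29 DNA replication genes tested had a positive log2 difference, with a median of 0.59, but 6 (20.7%) were called higher. Among them was Tyms, from 9.55 ± 2.87 to 24.0 ± 5.26 RPKM (log2 difference 1.31, adjusted p = 0.00823). The higher count was 11 without S5, 1 without S6, 3 without S7, S17 or S18, and 23 without S19, the Cre only library with the highest Tyms level, 13.3 RPKM, and the median ranged from 0.45 to 0.76 when single libraries were left out. Of 27 mitosis genes 1 (3.7%) was called higher, a share below that of all genes. Without S19, 14 were called higher, and 0 without S6, S7, S16, S17 or S18. Without S5, 1 glycolysis gene was higher and 9 were lower, and 1 was higher with the set term.

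Of 14 genes of the BCL-2 family, which holds protective and death-promoting members, 5 (35.7%) were lower and 1 (7.14%), the death-promoting Bax, was higher. The shares over all genes were 12.8% and 9.92%, so that the share of higher members was not above that of all genes. Both protective and death-promoting members fell: Bcl2l1, which encodes BCL-XL, from 34.4 ± 3.09 to 20.3 ± 1.14 RPKM (log2 difference -0.75, adjusted p = 0.00279), and Bcl2l11, which encodes BIM, from 38.7 ± 4.65 to 18.6 ± 6.19 RPKM (log2 difference -1.08, adjusted p = 0.0127). Bcl2 itself did not pass (log2 difference -0.34). The lower count was 3 without S7, and the higher count 0 without S6, S7 or S18. Tgfb1, the ligand of the TGF-beta pathway, fell from 97.1, 103, 126 and 111 RPKM to 50.7, 48.6 and 50.7 (log2 difference -1.11, SE 0.11, adjusted p = 0.000714). Of 15 tested genes for receptors and mediators of that pathway 2 (13.3%) were higher and 2 (13.3%) lower, near the 9.92% and 12.8% of all genes. The receptor Tgfbr2 fell by 1.32 (adjusted p = 0.00799) and the coreceptor Tgfbr3 rose from at most 0.0623 RPKM to 1.99, 1.94 and 1.83 (log2 difference 2.18, adjusted p = 0.000175). Tgfbr3 entered the test through the DKO libraries alone, the group in which it was high. The lower count of that list was 1 without S6, S7, S16, S17, S18 or S19 and 4 without S5, and its higher count was 1 without S5, S6 or S7.

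Of 21 interferon-stimulated genes, which many cell types switch on against viruses, 6 (28.6%) were higher and 3 (14.3%) lower. The shares over all genes were 9.92% and 12.8%, so that the share of lower members was near that of all genes. The counts were 2 and 1 without S6 or S7 and 3 and 2 without S18. Oasl2 rose from 0.803, 0.789, 0.408 and 0.345 RPKM to 6.60, 5.14 and 5.75 (log2 difference 2.56, SE 0.20, adjusted p = 0.000303), and the RNA sensor Ifih1 from 4.62 ± 0.647 to 8.21 ± 0.304 RPKM (log2 difference 0.77, adjusted p = 0.00519). Oasl2 entered the test through the DKO libraries alone, the group in which it was high. The nucleic acid sensor Zbp1 fell from 17.1 ± 1.81 to 9.74 ± 0.580 RPKM (log2 difference -0.78, adjusted p = 0.00336). The libraries of the groups did not overlap for Oasl2, Ifih1 and Zbp1, nor for 11 of the 21 genes in all, where the share over all genes tested was 35.2%. Of 17 genes of MHC class I presentation 5 (29.4%) were lower and 0 higher, and without S6 or S18 3 were lower. The classical class I gene H2-K1 was 1566, 1610, 1381 and 1299 RPKM in Cre only and 933, 993 and 989 in DKO cells (log2 difference -0.59, SE 0.11, adjusted p = 0.00854). Class I genes are similar in sequence, and reads shared between them may be split. Of 12 genes associated with type 1 innate lymphoid cells, relatives of NK cells, 5 (41.7%) were higher and 0 lower. Among them were Tmem176a and Tmem176b (log2 differences 2.19 and 2.11). The call of Tmem176a was lost without S6 (adjusted p = 0.0977), S7 (0.0781) or S18 (0.0751). That of Tmem176b was lost without S5, S6, S7, S18 or S19 (adjusted p from 0.0503 to 0.132). The list also holds Cd3e and Il7r, described above, and its higher count was 1 without S6, S7 or S18 and 3 without S19.

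**Figure D4:**
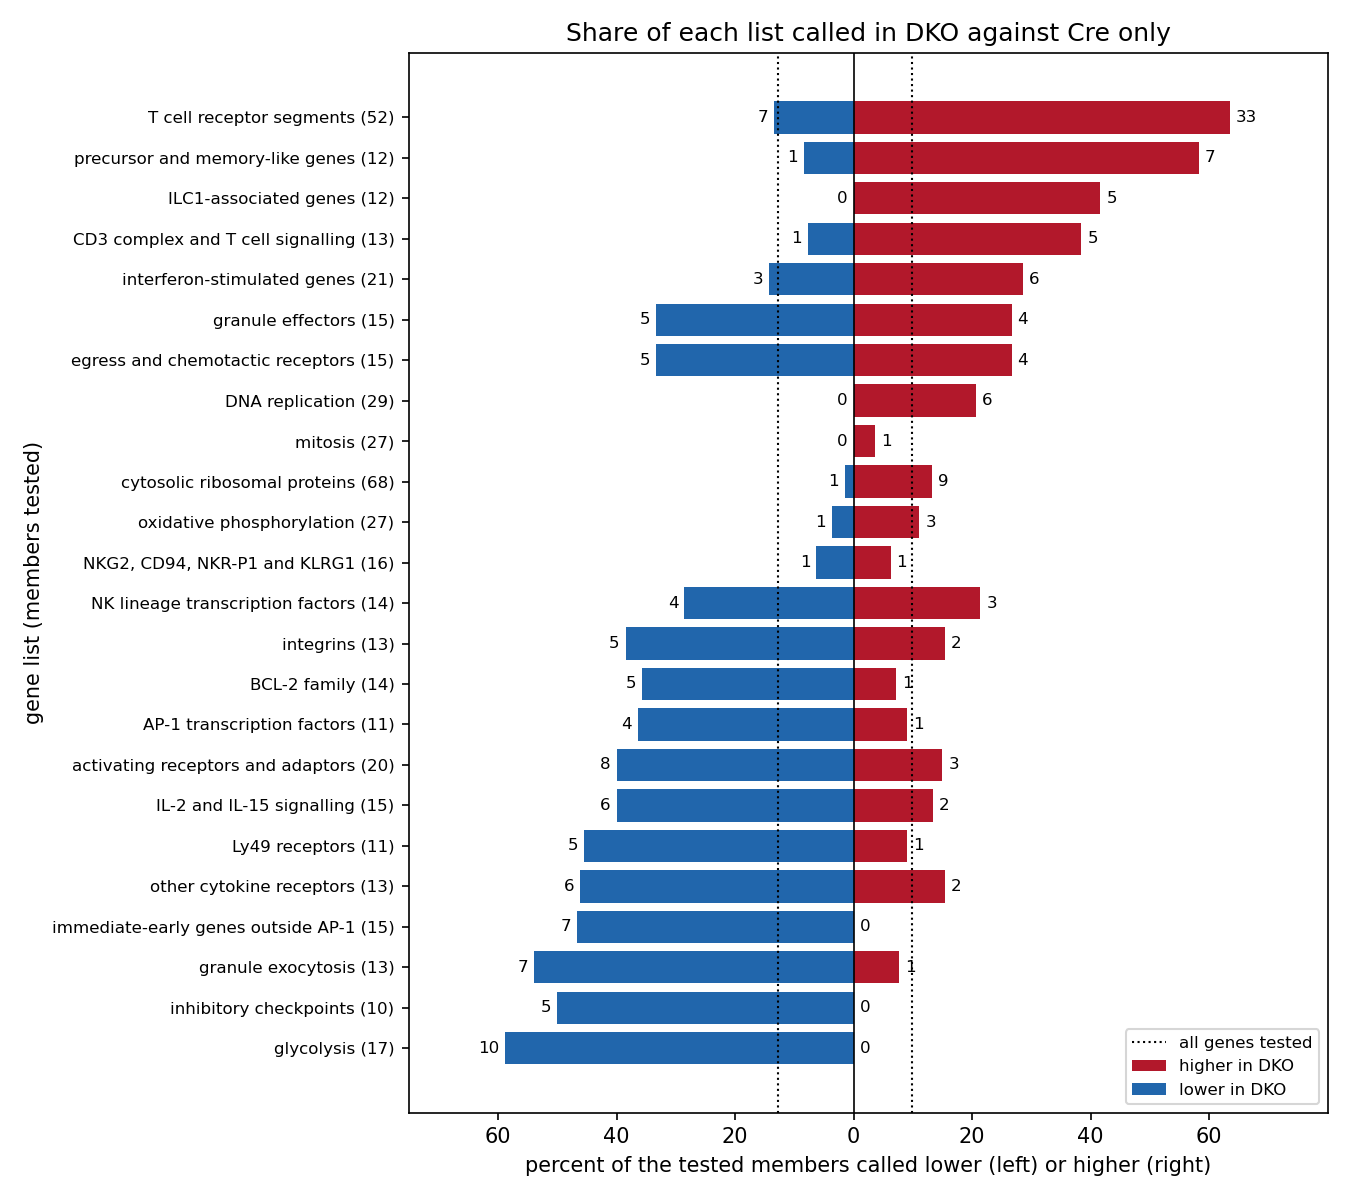
Percent of the tested members of 24 gene lists called lower (blue, left) or higher (red, right) in DKO cells, with the numbers of genes at the bar ends and the number tested in brackets. Dotted lines mark the share over all genes tested, 12.8% lower and 9.92% higher. T cell receptor segments have the most genes called higher, 33, and glycolysis the most called lower, 10.

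The DKO cells were also compared directly with the cells lacking a single gene. Of 9540 genes tested against Ikzf1 KO 17.8% differed, and of 9744 against Ikzf3 KO 6.81% differed. These counts, 1700 and 664 genes, depended on single libraries: they were 777 (without S12) to 3441 (without S5) against Ikzf1 KO, with 846 without S6, 1056 without S7, 841 without S14 and 1061 without S13. Against Ikzf3 KO they were 143 (without S6) to 571, with 256 without S5, 288 without S7 and 396 without S3. Fitted over all 15 libraries they were 734 and 1932, so that their order turned. The Ikzf3 KO libraries were widely spread. The chi-square per degree of freedom between read counts was 8.56 for S1 and S2, but 123.62 to 223.97 for either of these with S3 or S4. Among Ikzf1 KO libraries it was 3.36 to 27.84. A wider spread lowers the number of genes called, so these counts do not measure how close DKO cells are to either single knockout. Both comparisons use the same DKO libraries as the comparison with Cre only. For single genes the order of the 4 genotypes took several forms. In the first, DKO cells stood apart from both single knockouts: Igfbp7, Cd3e, Ikzf2 and Batf3 were higher than in either single knockout, with Batf3 at 0.516 ± 0.283 RPKM in Ikzf1 KO and 0.0876 ± 0.0755 in Ikzf3 KO cells. Jun, Fgr and Entpd1 were lower than in either, with Entpd1 at 21.2 ± 1.76 RPKM in Ikzf1 KO and 8.74 ± 3.48 in Ikzf3 KO cells (adjusted p = 1.19e-05 and 0.00548). Perforin followed with Prf1 at 145 ± 4.05 RPKM in Ikzf1 KO and 671 ± 379 in Ikzf3 KO cells, and the log2 difference of DKO was -2.39 from the former (adjusted p = 0.0178) and -4.37 from the latter (adjusted p = 0.00882).

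In a second form the DKO level was not called different from that of one of the single knockouts, which does not show that the levels were equal. Ifitm3 was 54.9 ± 34.6 RPKM in Cre only, 340.0 ± 76.6 in DKO and 461 ± 69.0 in Ikzf1 KO cells (DKO minus Ikzf1 KO -0.45, adjusted p = 0.118), and Oasl2 was 5.83 ± 0.734 in DKO and 7.04 ± 2.49 in Ikzf1 KO cells (-0.20, adjusted p = 0.596). Ccl5 was 33.2 ± 14.8 RPKM in Ikzf3 KO and 81.9 ± 39.0 in DKO cells (1.27, adjusted p = 0.143), and Slfn8 0.740 ± 0.354 and 1.44 ± 0.103 (0.69, adjusted p = 0.17). Gzmk (12.5 ± 7.83 RPKM in Ikzf3 KO, adjusted p = 0.989) and Ramp1 (11.4 ± 12.7 and 5.65 ± 0.998 RPKM, adjusted p = 0.861) had wide spreads in Ikzf3 KO cells. Ramp1 was 0.418 and 0.452 RPKM in S1 and S2, and 20.5 and 24.1 in S3 and S4.

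In another form the single knockouts lay on opposite sides of DKO or of Cre only. Cd226 was 43.0 ± 4.31 RPKM in Ikzf1 KO and 8.26 ± 4.08 in Ikzf3 KO cells, against 27.1 ± 6.43 in Cre only and 74.0 ± 10.5 in DKO cells. Tmem119 was 0.150 ± 0.114 RPKM in Ikzf1 KO and 33.7 ± 17.2 in Ikzf3 KO cells, against 6.21 ± 4.36 in Cre only and 0.139 ± 0.242 in DKO cells. Dmwd followed the same order, with 0.461 ± 0.103 RPKM in Ikzf1 KO, 20.3 ± 8.92 in Ikzf3 KO, 7.50 ± 2.55 in Cre only and 0.398 ± 0.369 in DKO cells. Whether the single effects add up was not tested here.

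**Figure D5:**
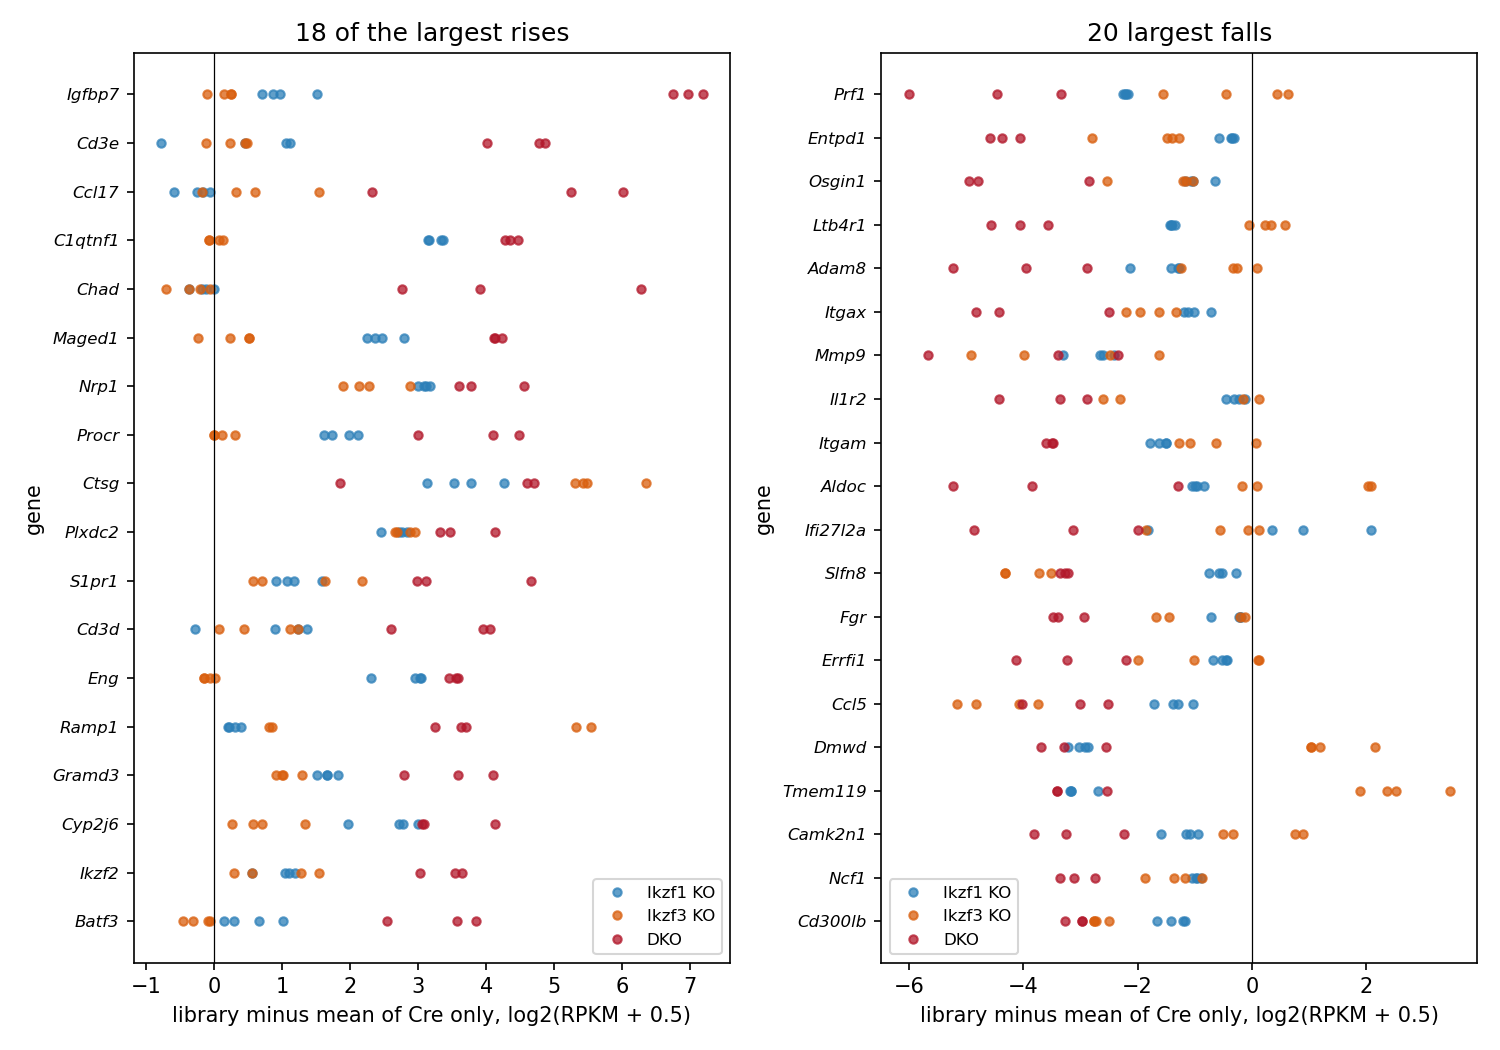
Each library of Ikzf1 KO, Ikzf3 KO and DKO cells relative to the mean of the Cre only libraries, on the log2(RPKM + 0.5) scale, for 18 of the 20 largest rises (left) and the 20 largest falls (right) in DKO. Igfbp7 and Cd3e are raised in the DKO libraries and closer to 0 in the single knockouts, while Tmem119 and Dmwd are lower in Ikzf1 KO and DKO and higher in Ikzf3 KO libraries.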

How the data were processed

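RNA sequencing of cultured, sorted mouse splenic NK cells was analysed in 3 DKO and 4 Cre only libraries, with 4 Ikzf1 KO and 4 Ikzf3 KO libraries for comparison. The 6 directly sorted samples were not analysed here. The authors deposited RPKM values. Alignment with STAR, counting with featureCounts, the use of limma 3.34.9 and the mm10 build come from the submitters' processing notes, and the counting strand is not given in the sources used here. Table columns state the genotype but not the culture, and were matched to the cultured groups, whose sample numbers they have. Whole reads were recovered from RPKM and GENCODE M21 exon lengths for 11291 genes (96.2%, tolerance 0.02 read), which gave the depth. No count test was run.

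Genes that reached 1 RPKM in 3 or more of the 7 libraries were tested on log2(RPKM + 0.5) by limma 3.58.1 under R 4.3.3, using a trended, robust moderation and only the groups compared. P-values were adjusted by Benjamini-Hochberg. The procedure was tested on simulated data. Alternatives varied the pseudocount, filter, scaling, weights, moderation and libraries.

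The comparison, gene lists and naming rule were chosen with earlier results of these data known. Named were Ikzf1 and Ikzf3, then the 20 largest rises and 20 largest falls among called genes whose groups did not overlap and whose higher mean reached 5 RPKM (no predicted genes or antigen receptor segments), and up to 6 members of each list by adjusted p. Further genes, among them T cell receptor segments and members that did not pass, were named after their values were seen. Promoters are RefSeq sequences on GRCm38.p6, the first listed per symbol. Results for some named genes are not reported here.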

Additional observations from a re-analysis of the deposited data

Results flagged for a closer look

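Igfbp7 was read at 0.172 RPKM in Cre only library S16 and listed at 0 in the other 3 Cre only libraries, so the gap of S16 to its nearest neighbour made up the whole range of the group (ratio 1.0). With the other 3 libraries tied at 0, any value above 0 in S16 gives this ratio, so the mark says little. The value is far below the 57.6 RPKM of the lowest DKO library.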

How the results depend on the processing

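The 2187 genes changed between DKO and Cre only became 5341 with array weights (2501 higher, 2840 lower), 956 without S16 and S17 (487 higher, 469 lower), 1405 without S18 and S19 (648 lower), 3522 with only S6, S7, S16 and S17, chosen after seeing the data (1625 higher, 1897 lower), and 804 with a log2 change of at least 1 (389 higher, 415 lower). The estimation of array weights stopped before its convergence tolerance was reached. With RPKM at least 5, 570 genes were higher. Leaving out single libraries gave 802 to 2941 changed, 284 to 1214 higher and 518 to 1727 lower genes, the lowest without S6 and the highest without S5. The other alternatives stayed within 1.5 times the counts. Against Ikzf1 KO, 734 genes changed with all 15 libraries in the fit and 777 (without S12) to 3441 (without S5) when single libraries were left out. Against Ikzf3 KO these were 1932, and 143 (without S6) to 571. Trdc turned from -0.06 to 0.86 on the log2 scale with array weights, and the cause was not tested. No paired analysis was possible because the columns carry no replicate numbers of the labels. With 3 DKO libraries, weakly expressed genes near 1 RPKM are the least precise.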
